A study of Mus musculus with 12 samples.

Results

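Transcripts of 9 genes that are known as products of megakaryocytes and platelets (Pf4, Ppbp, Itga2b, Itgb3, Gp1bb, Gp5, Gp9, Fli1 and Treml1) were followed through 4 stages of erythroblast maturation. The genes were taken by name from a table of expression values for 29838 genes, and each name matched 1 Ensembl identifier. The cells were sorted from the bone marrow of wild-type (WT) C57BL/6 male mice aged 8 weeks, and the labels name no treatment. Proerythroblasts (Pro) were gated as CD44 high and Ter119 low, and basophilic (Baso), polychromatic (Poly) and orthochromatic (Ortho) erythroblasts as Ter119-positive cells separated by CD44 staining and forward scatter. All gates excluded dead cells and cells positive for CD45, CD11b or GR1, but no megakaryocyte or platelet antigen such as CD41 was part of the gate. Each stage had 3 RNA-seq libraries, and Ortho replicates 2 and 3 carry only a general erythroblast cell type in the labels and were placed by their titles. The labels do not say whether the libraries of a stage came from separate animals, so p-values measure the spread between these libraries only.

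Megakaryocytes and erythroblasts descend from a common progenitor and share factors such as GATA1, and megakaryocytes release platelets into the blood. Platelets have no nucleus but keep RNA of the megakaryocyte, in which the chemokine genes Pf4 and Ppbp are prominent. FLI1, a factor of the ETS family, drives megakaryocyte genes and opposes KLF1, the factor that drives erythroid genes. The surface of a platelet carries the fibrinogen receptor, an integrin made of the products of Itga2b and Itgb3, and the von Willebrand factor receptor, which holds GPIb alpha, GPIb beta (Gp1bb), GPIX (Gp9) and GPV (Gp5).

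On the mm10 genome, the chemokine genes lay side by side on 1 strand, Ppbp at chr5:90768518-90770063 and Pf4 at chr5:90772435-90773383. Both integrin genes lay on chromosome 11, Itga2b at chr11:102453297-102470122 and Itgb3 at chr11:104608000-104670476. Of the receptor complex, Gp1bb was at chr16:18620317-18622403, Gp5 at chr16:30307685-30310779 and Gp9 at chr6:87778072-87779768. Treml1 was at chr17:48359916-48367176 and Fli1 at chr9:32422204-32542861, and all 9 genes are annotated as protein coding. The exons of Gp1bb share 1902 of their 2087 bases with the neighbouring gene Sept5 on the same strand, so reads there cannot be given to either gene with certainty and Gp1bb values are uncertain. The 8 other members share no exon bases with another annotated gene.

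Promoter windows from RefSeq (GRCm38.p6), from 250 bases before to 50 bases after the start, were at hand for 7 of the 9 members. Promoters of megakaryocyte genes are known for neighbouring sites of GATA and ETS factors, and both kinds of motif were therefore searched on both strands, as AGATAA or TGATAA for GATA and as CCGGAA or AGGAAG for ETS. A GATA motif was found in 2 of the 7 windows (Pf4 and Gp5) and an ETS motif in 5 (Pf4, Itga2b, Gp1bb, Gp5 and Gp9), against 18.6% and 45.2% of all 32817 windows. The RUNX motif TGTGGT was found in 1 window (Gp9) and in 16.8% of all windows. The windows of Pf4 and Gp5 are shown because they held both motifs and because these genes varied together most closely, that of Gp9 because its course over the stages was its own, and that of Itga2b because it was called in no comparison. All are written on the strand of the gene from 5′ to 3′, with GATA and ETS motifs in capitals, and the matches shared no bases with each other.
Pf4, chr5:90772185-90772484, plus strand: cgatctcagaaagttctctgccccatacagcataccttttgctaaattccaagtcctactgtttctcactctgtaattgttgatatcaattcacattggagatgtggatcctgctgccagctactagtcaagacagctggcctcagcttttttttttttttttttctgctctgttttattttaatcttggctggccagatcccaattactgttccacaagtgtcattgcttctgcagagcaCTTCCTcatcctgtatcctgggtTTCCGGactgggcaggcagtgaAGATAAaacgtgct
Gp5, chr16:30310732-30311031, minus strand: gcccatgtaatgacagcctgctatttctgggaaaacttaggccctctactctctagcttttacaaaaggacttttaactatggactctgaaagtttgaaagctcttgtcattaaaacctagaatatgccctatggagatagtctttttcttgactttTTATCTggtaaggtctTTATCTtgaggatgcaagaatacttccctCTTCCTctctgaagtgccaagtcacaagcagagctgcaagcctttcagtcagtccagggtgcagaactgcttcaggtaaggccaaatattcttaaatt
Gp9, chr6:87777820-87778119, plus strand: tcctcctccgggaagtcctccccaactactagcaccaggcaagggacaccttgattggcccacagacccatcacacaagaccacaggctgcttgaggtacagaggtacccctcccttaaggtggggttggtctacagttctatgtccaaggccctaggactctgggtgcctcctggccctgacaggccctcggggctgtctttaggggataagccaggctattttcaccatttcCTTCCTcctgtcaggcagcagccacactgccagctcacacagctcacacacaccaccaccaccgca
Itga2b, chr11:102469834-102470133, minus strand: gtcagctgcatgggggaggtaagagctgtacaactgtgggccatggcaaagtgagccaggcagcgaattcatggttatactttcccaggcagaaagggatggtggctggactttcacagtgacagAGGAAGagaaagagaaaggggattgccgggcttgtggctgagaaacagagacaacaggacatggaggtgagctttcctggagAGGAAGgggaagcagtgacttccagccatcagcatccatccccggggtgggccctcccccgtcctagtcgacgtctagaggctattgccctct
In Gp5, GATA motifs began 93 and 77 bases before the start (positions -93 and -77) and the ETS motif at -48. In Pf4, the ETS motifs began at -9 and 15 and the GATA motif at 37, the last pair behind the start. In Gp9 the ETS motif began at -16, and in Itga2b the ETS motifs at -125 and -43. These positions count from the RefSeq start, which for Itga2b lies 239 bases inside the gene span given above. These matches describe letters only, and no binding was measured.

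Values were given as FPKM, fragment counts corrected for the length of a transcript and the number of fragments mapped in its library, so levels of different genes can be compared per length. Hemoglobin transcripts made up 6.98% to 10.7% of the summed FPKM in Pro and 47.2% to 52.6% in Ortho, and across the 12994 genes tested the median difference from Pro, on the log2 scale, was -0.23 (Baso), -0.20 (Poly) and -0.42 (Ortho). The sums of the erythroid marker list were 20600 to 31930 FPKM in Pro and 168300 to 200700 in Ortho. They came mostly from the hemoglobin genes Hba-a1 (means of 12800 and 92610 FPKM) and Hbb-bs (9970 and 86860). The sums thus largely repeated the hemoglobin share. Other genes of the list differed, with Alas2 higher in Ortho (336.4 and 2221), Epor lower (148.8 and 46.46) and Tfrc nearly equal (333.0 and 335.9). The list also held Ptprc, the gene of CD45 (26.88 and 57.45). Markers of other cells were present despite the gate, with neutrophil sums of 6994 to 8730 FPKM in Pro and 13760 to 17040 in Ortho. Endothelial sums were 9.004 to 9.45 and 6.78 to 8.20, mostly from 1 gene, Egfl7 (means of 8.03 and 4.88 FPKM). The depth of the libraries is unknown, because low values did not fall into whole-fragment steps.

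All 9 members passed the filter on low values (1 FPKM or more in 3 or more libraries) and were tested, but Treml1 reached 1 FPKM only in the 3 Pro and 2 of the Baso libraries and thus entered through the stages where it was high. Differences were estimated on log2(FPKM + 1), which understates the change of genes at low levels, and a gene was called at an adjusted p under 0.05 when it also differed by 1 or more on the log2 scale, up or down. Compared with Pro, 3 members fell in Baso (Pf4, Gp5 and Treml1), 4 in Poly (these and Ppbp) and 5 in Ortho (these and Gp9), while 1 member, Fli1, rose in Ortho. Of all genes tested, 8.54% were called lower in Baso, 12.8% in Poly and 23.8% in Ortho, and 1.82%, 3.59% and 6.33% were called higher. This balance depended on the scaling. With libraries rescaled to the same sum, 321 genes were called higher and 4857 lower in Ortho. The counts were 283 and 2417 in Poly and 175 and 1822 in Baso. Under this scaling 3 members were called lower in Baso, 4 in Poly and 6 in Ortho, and 0 higher. Other scalings turned the balance. In Ortho 823 genes were called higher and 3092 lower, against 1997 and 1153 with libraries rescaled without hemoglobin genes and 2078 and 1293 with libraries centred on the median. In Poly the counts were 467 higher and 1663 lower, against 1329 and 742 and against 1220 and 925, and in Baso 237 and 1110, against 494 and 421 and against 554 and 409. Both rescaled without hemoglobin genes and centred on the median, 4 members were called lower and 1, Fli1, higher in both Poly and Ortho, and 0 were called in Baso. Between consecutive stages, 0 members were called by limma from Baso to Poly, although 1 was lower (Gp9) and 1 higher (Fli1) at an unadjusted p under 0.05 (12.4% and 16.9% of all genes), where 0.454% of genes were called lower and 0.0616% higher. From Poly to Ortho 1 member fell, Gp9, and 0 rose, where 4.81% of genes were called lower and 1.05% higher. The median of the 9 members, compared with Pro, was -0.55 for Baso, -0.79 for Poly and -1.39 for Ortho on the log2 scale. In bulk samples, fewer cells of a type and less RNA per cell cannot be told apart.

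**Figure D1:**
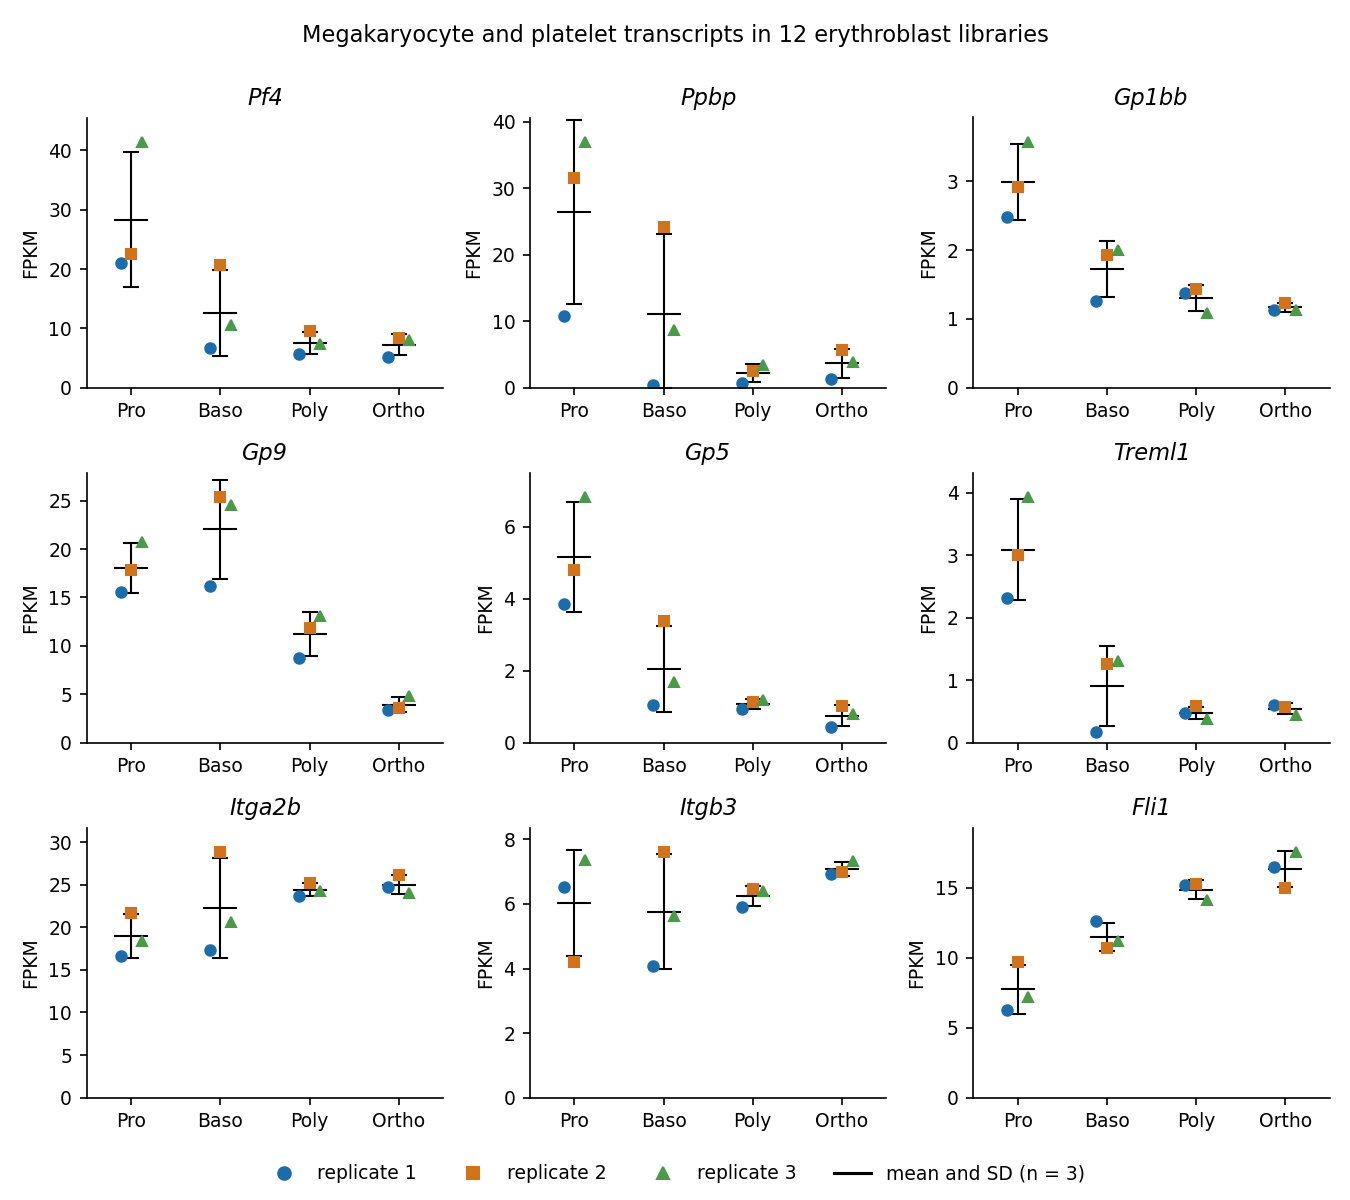
FPKM of the 9 transcripts in each of the 12 libraries, with the stage on the x axis, symbols for replicates 1 to 3 and bars for the mean and SD of a stage (the lower bar of Ppbp in Baso is drawn to 0). Pf4, Ppbp, Gp1bb, Gp5 and Treml1 were highest in Pro, Gp9 declined late, and Itga2b, Itgb3 and Fli1 were not lower in Ortho than in Pro.

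By stage mean, the chemokine genes were the most abundant members in Pro, although in Pro replicate 1 Ppbp (10.8 FPKM) was below Itga2b (16.6) and Gp9 (15.5). Pf4 (platelet factor 4, a chemokine stored in alpha granules) had 21.0, 22.5 and 41.4 FPKM in Pro replicates 1 to 3, and 6.71, 20.7 and 10.5 FPKM in Baso. It had 5.75, 9.55 and 7.34 FPKM in Poly and 5.19, 8.41 and 8.10 FPKM in Ortho. All Pro libraries were above all later libraries, although Baso replicate 2 was close to the lowest Pro library. The mean fell from 28.3 ± 11.3 FPKM (SD, n = 3) in Pro to 7.23 ± 1.78 FPKM in Ortho, a 3.92-fold difference of means (log2 fold change -1.79, 95% confidence interval -2.58 to -1.01, limma adjusted p = 0.000736). The log2 fold change was already -1.17 in Baso (adjusted p = 0.0155) and -1.74 in Poly (adjusted p = 0.00122). The Baso call rested on single libraries, since the log2 fold change was -0.87 without Pro replicate 3 (adjusted p = 0.0703) and -0.82 without Baso replicate 1 (adjusted p = 0.0687).

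Ppbp (pro-platelet basic protein, the precursor of another granule chemokine) was the most variable member. It had 10.8, 31.5 and 37.0 FPKM in Pro and 0.419, 24.2 and 8.64 FPKM in Baso, a 57.8-fold range among the Baso libraries. It had 0.714, 2.54 and 3.39 FPKM in Poly and 1.38, 5.75 and 3.79 FPKM in Ortho. Pro and Baso libraries overlapped, whereas all Poly and Ortho libraries were below all Pro libraries. Its spread within stages (SD 1.26 on the log2 scale) was larger than that of 99.4% of the genes tested, and those of Pf4, Gp5 and Treml1 were larger than that of 96.4%, 91.3% and 88.7%. Ppbp fell by 3.03 on the log2 scale from Pro to Poly (adjusted p = 0.0093) and by 2.52 from Pro to Ortho (adjusted p = 0.0202), and its log2 fold change was -1.80 in Baso (adjusted p = 0.098). The Ortho call was lost without Pro replicate 2 (-2.32, adjusted p = 0.0598), Pro replicate 3 (-2.20, adjusted p = 0.0693) or Ortho replicate 1 (-2.10, adjusted p = 0.0744). Without Baso replicate 2 the Baso comparison with Pro passed (-2.72, adjusted p = 0.015), and without Baso replicate 1 the log2 fold change from Baso to Poly was -2.38 (adjusted p = 0.0423).

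The ratio of Ppbp to Pf4 within a library, which does not depend on the scaling of libraries, ranged from 0.0624 in Baso replicate 1 to 1.40 in Pro replicate 2. Its mean was 0.935 ± 0.444 (Pro), 0.683 ± 0.565 (Baso), 0.284 ± 0.170 (Poly) and 0.472 ± 0.209 (Ortho) (n = 3 each). The stages overlapped, and an exact permutation test over the 4 stages gave p = 0.475 (0.633 adjusted over 4 ratios). The 4 ratios were chosen after the values had been seen, and the smallest p this test can give is 6.49e-05. Exchanging stages only among libraries of the same replicate number, an alternative added after the values had been seen, gave exact p = 0.2 (smallest possible 0.00174), and over Baso, Poly and Ortho, the stages that the numbers pair, p = 0.639 (smallest possible 0.0278). Within each number the Pro ratio was above the 3 later ones and the Ortho ratio above that of Poly, and in each stage the lowest ratio was that of replicate 1.

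**Figure D2:**
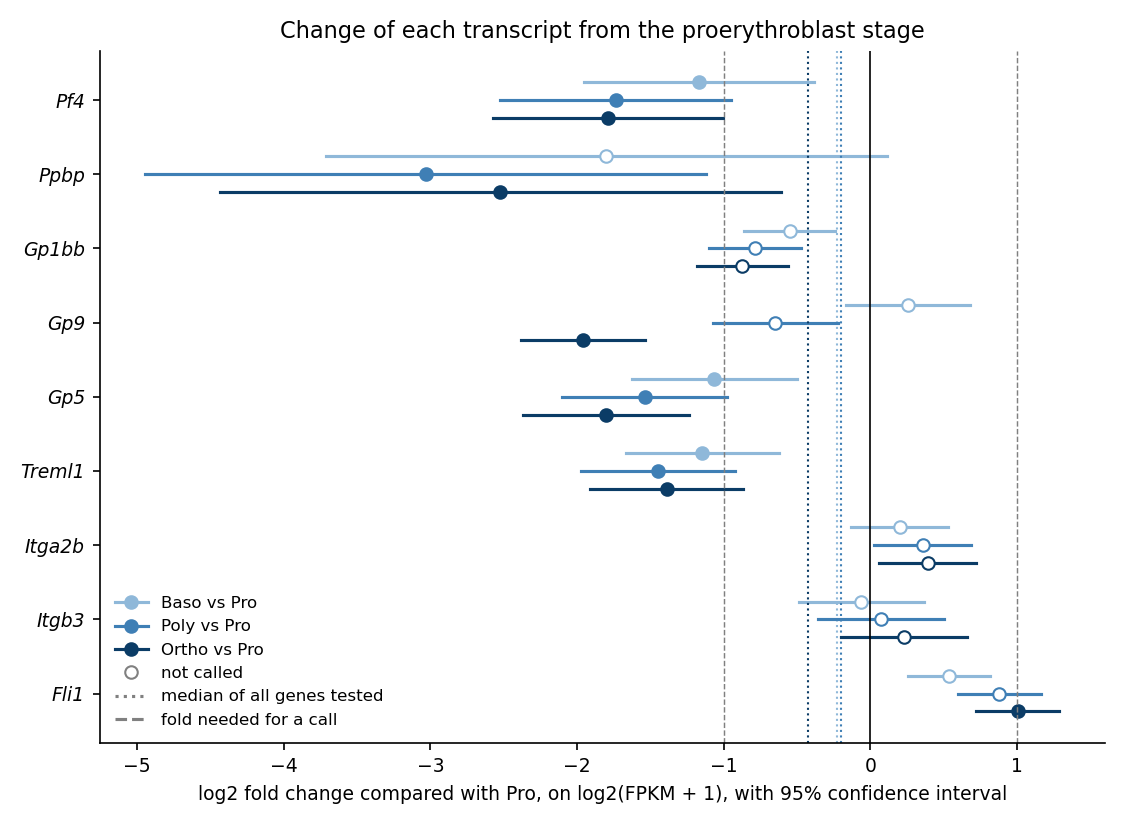
Log2 fold changes of the members in Baso, Poly and Ortho compared with Pro on log2(FPKM + 1), with 95% confidence intervals (horizontal lines), filled symbols for calls, dotted lines for the median of all genes tested and dashed lines for the fold that a call needs. Ppbp had the widest intervals, Gp9 was lower only from Poly on, and Fli1 was above 0 in all 3 comparisons.

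In the von Willebrand factor receptor, Gp5 declined early and Gp9 late. Gp5 had 3.84, 4.81 and 6.83 FPKM in Pro, 1.06, 3.37 and 1.68 FPKM in Baso, 0.925, 1.13 and 1.19 FPKM in Poly and 0.428, 1.01 and 0.802 FPKM in Ortho. All Pro libraries were above all later ones. Gp5 fell in Baso (log2 fold change -1.06, adjusted p = 0.00426), in Poly (-1.54, adjusted p = 0.00028) and in Ortho (-1.80, 95% confidence interval -2.37 to -1.24, adjusted p = 5.6e-05). In Baso the fold was under that of a call without Pro replicate 3 (-0.88, adjusted p = 0.0212) or Baso replicate 1 (-0.82, adjusted p = 0.0192).

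Gp9, the subunit GPIX, had 15.5, 17.9 and 20.8 FPKM in Pro and 16.2, 25.4 and 24.6 FPKM in Baso. It had 8.70, 11.9 and 13.1 FPKM in Poly and 3.33, 3.59 and 4.79 FPKM in Ortho. Pro and Baso overlapped, all Poly libraries were below both, and all Ortho libraries were below all Poly libraries. The log2 fold change compared with Pro was 0.26 in Baso (adjusted p = 0.277) and -0.65 in Poly (adjusted p = 0.0114, under the fold of a call), and Gp9 fell by 1.96 in Ortho (95% confidence interval -2.38 to -1.53, adjusted p = 2.79e-06). From Baso to Poly it was -0.91 (adjusted p = 0.0154), and it passed the fold without Baso replicate 1 (-1.10) or Poly replicate 3 (-1.02). From Poly to Ortho Gp9 fell by 1.31 (adjusted p = 0.000286). The difference of Poly from Pro depended on the scaling. It was -0.82 with libraries rescaled to the same sum (limma adjusted p = 0.00204). Rescaled without hemoglobin genes it was -0.32 (adjusted p = 0.162), and centred on the median -0.40 (adjusted p = 0.0933).

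Gp1bb (GPIb beta) had 2.48, 2.92 and 3.57 FPKM in Pro, 1.26, 1.92 and 2.00 FPKM in Baso, 1.38, 1.44 and 1.085 FPKM in Poly and 1.13, 1.23 and 1.14 FPKM in Ortho. All Pro libraries were above all later ones, with log2 fold changes of -0.55 in Baso (adjusted p = 0.00614), -0.79 in Poly (adjusted p = 0.000483) and -0.87 in Ortho (adjusted p = 0.000158), all short of the fold of a call. With a pseudocount of 0.1 in place of 1, Gp1bb passed in Poly (-1.13) and Ortho (-1.27), and with libraries rescaled to the same sum it passed in Ortho (-1.11), where it was -0.55 rescaled without hemoglobin genes and -0.48 centred on the median. Sept5, the septin gene that overlaps it and whose symbol appeared as a date in the deposited table, took the other direction, from 12.3 to 15.4 FPKM in Pro to 25.3 to 28.2 FPKM in Poly and 20.8 to 22.8 FPKM in Ortho (log2 fold change 0.64 in Ortho compared with Pro, adjusted p = 8.2e-05, under the fold of a call).

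In FPKM, the ratios of Gp9 to Gp5 and to Gp1bb differed between stages. Both pairs were chosen after the values had been seen, so their p-values are descriptive. Gp5 was also low in Ortho (0.428 to 1.01 FPKM). The ratio of Gp9 to Gp5 was 3.60 ± 0.510 (Pro), 12.5 ± 4.29 (Baso), 10.3 ± 0.843 (Poly) and 5.77 ± 2.12 (Ortho) (n = 3 each, exact permutation test over the 4 stages, p = 0.00539, 0.0108 adjusted over 4 ratios). The Pro ratios of 3.04 to 4.04 were below all Baso and Poly ratios and overlapped those of Ortho. With a pseudocount of 1 on both genes, the log2 ratio of Ortho minus Pro changed from 0.62 to -0.16. The ratio of Gp9 to Gp1bb was 6.07 ± 0.231 (Pro), 12.8 ± 0.460 (Baso), 8.87 ± 2.95 (Poly) and 3.36 ± 0.740 (Ortho), at the smallest p the exact permutation test can give (6.49e-05, 0.00026 adjusted). With stages exchanged within replicate numbers, the exact permutation test gave p = 0.0139 for Gp9 to Gp5 and 0.00174 for Gp9 to Gp1bb, and over Baso, Poly and Ortho alone it gave 0.0833 and 0.0278, the second of each pair being the smallest possible. The 3 Baso ratios of 12.3 to 13.2 lay above all others, and the 3 Ortho ratios of 2.91 to 4.22 below all others. The second ratio carries the uncertainty of the Gp1bb values. Gp1ba, the gene of the remaining subunit, had mean FPKM of 2.42 ± 1.07 (Pro), 1.28 ± 0.867 (Baso), 0.737 ± 0.228 (Poly) and 0.637 ± 0.0669 (Ortho), and it fell in Ortho (log2 fold change -1.01, adjusted p = 0.00658). It too reached 1 FPKM only in the 3 Pro and 2 of the Baso libraries.

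**Figure D3:**
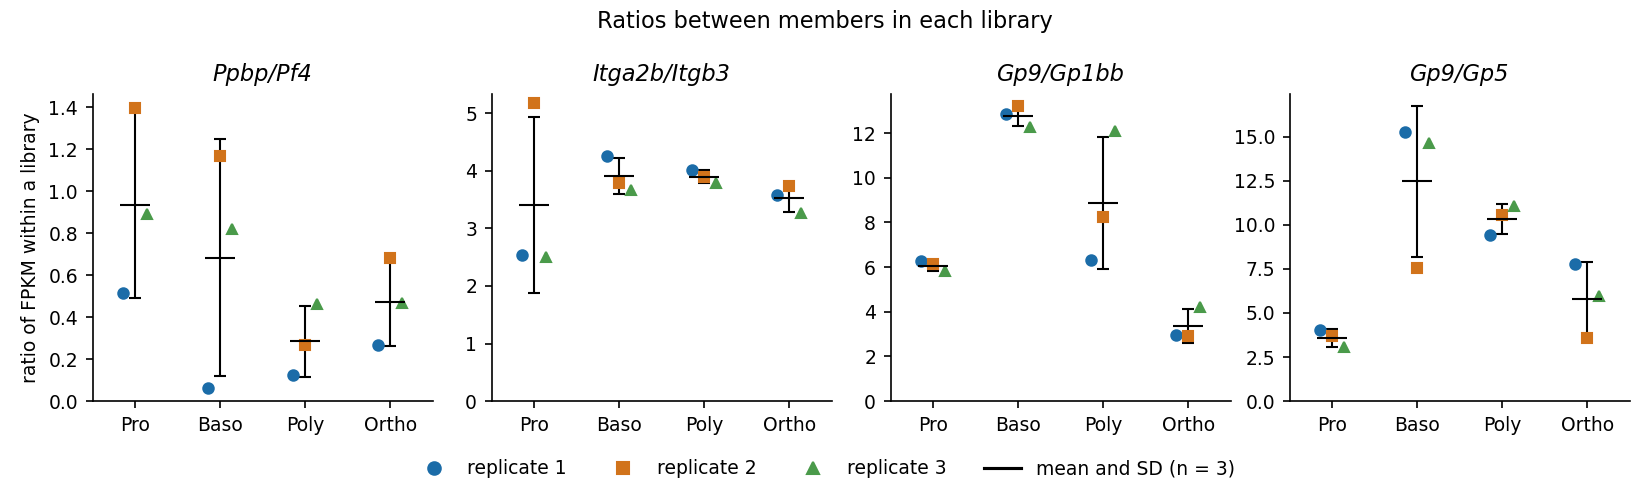
Ratio of FPKM of 4 pairs of members in each library, with the stage on the x axis, symbols for replicates and bars for the mean and SD of a stage. The Gp9 to Gp1bb ratio was highest in Baso and lowest in Ortho without overlap, whereas the Ppbp to Pf4 ratios of the stages overlapped and the Itga2b to Itgb3 ratio stood apart in Pro replicate 2 (5.18).

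Treml1, a receptor held in alpha granules and moved to the surface of activated platelets, was among the lowest members. It had 2.32, 3.01 and 3.93 FPKM in Pro and 0.166, 1.26 and 1.30 FPKM in Baso. It had 0.479, 0.580 and 0.387 FPKM in Poly and 0.607, 0.574 and 0.441 FPKM in Ortho. All Pro libraries were above all later ones, and Baso replicate 1 was the lowest of the 12. Treml1 fell in Baso (log2 fold change -1.14, adjusted p = 0.00171), Poly (-1.45, adjusted p = 0.000259) and Ortho (-1.39, adjusted p = 0.000242). In Baso it was under the fold of a call without Baso replicate 1 (-0.82, adjusted p = 0.00222). As it reached 1 FPKM in Pro and Baso libraries only, a fall was partly set by the filter.

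Neither integrin gene was called in any comparison. Itga2b, which encodes the alpha IIb chain (CD41), had 16.6, 21.7 and 18.4 FPKM in Pro, 17.4, 28.8 and 20.6 FPKM in Baso, 23.7, 25.2 and 24.3 FPKM in Poly and 24.8, 26.2 and 23.97 FPKM in Ortho. All Poly and Ortho libraries were above all Pro libraries, with log2 fold changes of 0.36 in Poly (adjusted p = 0.0547) and 0.39 in Ortho (95% confidence interval 0.06 to 0.72, adjusted p = 0.0338), under the fold of a call. Rescaling all libraries to the same sum took the Ortho value to 0.04 (adjusted p = 0.816), and rescaling without hemoglobin genes to 0.86 (adjusted p = 0.000332).

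Itgb3, the beta 3 chain, had 6.53, 4.20 and 7.37 FPKM in Pro, 4.07, 7.61 and 5.61 FPKM in Baso, 5.90, 6.48 and 6.40 FPKM in Poly and 6.92, 6.999 and 7.34 FPKM in Ortho. The Pro libraries spanned those of Poly and Ortho. The log2 fold change of Ortho compared with Pro was 0.23 (95% confidence interval -0.20 to 0.66, limma adjusted p = 0.3), with a change of sign under rescaling to the same sum (-0.09). The Ortho value was 0.65 rescaled without hemoglobin genes (adjusted p = 0.0087) and 0.63 centred on the median (adjusted p = 0.0123), under the fold of a call. The ratio of Itga2b to Itgb3 was 3.41 ± 1.53 (Pro), 3.91 ± 0.316 (Baso), 3.90 ± 0.108 (Poly) and 3.53 ± 0.241 (Ortho) (exact permutation test, p = 0.651). It was 5.18 in Pro replicate 2 and 2.50 to 2.55 in the other Pro libraries, and without Pro replicate 2 the exact permutation test gave p = 0.0026.

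Fli1 was the member that rose. It had 6.30, 9.70 and 7.22 FPKM in Pro, 12.6, 10.7 and 11.2 FPKM in Baso, 15.2, 15.3 and 14.1 FPKM in Poly and 16.5, 15.0 and 17.6 FPKM in Ortho. Pro, Baso and Poly libraries did not overlap, whereas Poly and Ortho did. The log2 fold change compared with Pro was 0.54 in Baso (adjusted p = 0.00407), 0.88 in Poly (adjusted p = 0.000103) and 1.005 in Ortho (95% confidence interval 0.72 to 1.29, adjusted p = 2.31e-05), just at the fold of a call. It was 0.88 without Pro replicate 1, 0.97 without Pro replicate 3, 0.997 without Ortho replicate 1, 0.95 without Ortho replicate 3, and 0.67 with libraries rescaled to the same sum. Rescaled without hemoglobin genes it was 1.45 and centred on the median 1.40, and under both the Poly value passed too (1.19 and 1.13), as it did without Pro replicate 2 (1.04). Klf1, the erythroid factor known to oppose FLI1, had 301 to 346 FPKM in Pro and 60.7 to 73.6 FPKM in Ortho and fell by 2.19 (adjusted p = 5.1e-09), after means of 339.6 FPKM in Baso and 292 FPKM in Poly.

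Markers of other blood cells moved in the same direction as Fli1, which such cells also express. The summed FPKM of 8 B cell markers was 63.1 to 110.2 in Pro and 159.8 to 206 in Ortho (6 of 8 called higher). That of 6 mast cell and basophil markers was 238 to 373 and 623 to 739 (3 of 6). That of 10 macrophage markers, 6 of them tested, was 238 to 306 and 462 to 580 (3 called). For 6 stem and progenitor markers the sums were 93.0 to 107 and 142 to 149 (2 of 6). Of all genes tested, 6.33% were called higher and 23.8% lower. Of 10 neutrophil markers 3 were called higher, and of 8 T and NK cell markers, 4 of them tested, 1, with sums of 28.7 to 41.1 in Pro and 53.0 to 65.2 in Ortho. Cd3e and Cd3g, the endothelial genes Kdr, Emcn, Tek and Cldn5, and in Pro the macrophage genes C1qa, C1qb and C1qc were at or near 0. In later stages these 3 macrophage genes reached 1.095 FPKM at most. Other genes of the T and NK cell and endothelial lists were present. Nkg7 had means of 23.6 FPKM in Pro and 35.1 in Ortho, Il7r 6.88 and 18.6, Lck 3.80 and 3.38, and Cdh5 0.782 and 1.96. The genes whose levels were most like Fli1 over the 12 libraries were Cd53, a leukocyte tetraspanin (Pearson r = 0.986), and Ighm, the immunoglobulin mu chain (r = 0.986). The part of these cells in the Fli1 values was not tested.

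Within stages, most members varied together. After the stage mean was subtracted from log2(FPKM + 1), the 28 pairs among the 8 members other than Fli1 had Pearson r between 0.36 and 0.96 over the 12 libraries, with a median of 0.70 and 14 pairs over 0.7. The highest was between Pf4 and Gp5, whose promoters are printed above. Fli1 had r between -0.74 and 0.07 with the others. The points share library and scaling, and these values describe the 12 libraries without a test.

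**Figure D4:**
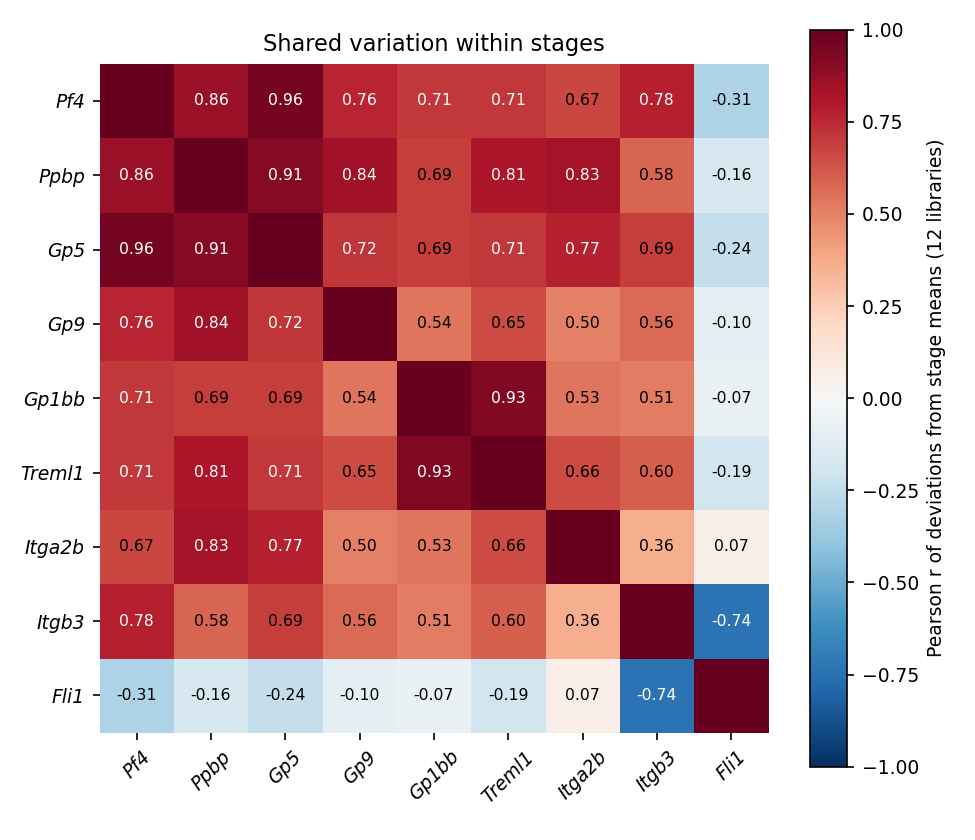
Pearson r between members of their deviations from the stage means on log2(FPKM + 1), over 12 libraries, on a colour scale from -1 (blue) to 1 (red). The 8 members other than Fli1 were all positively related, from 0.36 to 0.96, and Fli1 was not.

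The lowest libraries were often the same for several members. Baso replicate 1 was the lowest of the 3 Baso libraries for 8 of the 9 members, and it was the lowest for 39.8% of all genes tested. Replicate 1 was the lowest library in all 4 stages for Pf4, Ppbp, Gp5 and Gp9, which held for 2.60% of all genes tested. Whether libraries with the same number share an animal or a day is not given in the labels.

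Of 80 other genes of megakaryocytes and platelets, in lists of receptors, granule contents and enzymes, transcription factors, and signalling and cytoskeletal genes, 71 were tested. Compared with Pro, 1 was called higher and 1 lower in Baso, 9 higher and 6 lower in Poly, and 8 higher and 9 lower in Ortho. Of all genes tested, the shares called higher and lower were 1.82% and 8.54% (Baso), 3.59% and 12.8% (Poly) and 6.33% and 23.8% (Ortho). Between consecutive stages limma called 0 from Baso to Poly, where 24 were higher and 3 lower at an unadjusted p under 0.05 (16.9% and 12.4% of all genes), and 1 was called higher and 4 lower from Poly to Ortho (1.05% and 4.81% of all genes). In Ortho compared with Pro the median log2 fold change was 0.34 for receptors, -0.01 for granule genes, 0.62 for transcription factors and 0.20 for signalling genes, beside -0.42 for all genes tested.

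Of 15 receptor genes tested out of 22, 2 rose in Ortho. Cd36, a scavenger receptor that erythroblasts also carry, rose from 10.3 ± 1.39 FPKM in Pro to 166 ± 10.2 FPKM in Ortho (log2 fold change 3.89, adjusted p = 8.24e-08), and Fcer1g, the signalling chain of GPVI and of Fc receptors, rose from 79.8 ± 10.0 to 182 ± 14.5 FPKM (1.19, adjusted p = 3.38e-07). Gp1ba was the only receptor gene called lower. The tetraspanin gene Cd9 had 24.2 ± 6.34 FPKM in Pro and 43.7 ± 3.97 FPKM in Ortho (0.86, adjusted p = 0.000435, under the fold of a call). Gp6, the collagen receptor gene, reached 0.514 FPKM at most and was not tested, and it was picked after its values had been seen.

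Of 20 granule and enzyme genes tested out of 21, 2 rose and 4 fell in Ortho, beside 6.33% and 23.8% of all genes tested. F13a1, the factor XIII A chain, which monocytes also express, rose from 76.5 ± 9.74 to 170.5 ± 10.7 FPKM (log2 fold change 1.15, adjusted p = 3.59e-07), and Tbxas1, thromboxane synthase, rose from 3.07 ± 0.451 to 9.27 ± 1.54 FPKM (1.33, adjusted p = 6.85e-05). Sparc (-2.54, adjusted p = 0.00805), the chaperone gene Clu (-1.27, adjusted p = 0.00339), the vesicle fusion gene Vamp8 (-1.22, adjusted p = 1.02e-06) and Timp3 (-1.15, adjusted p = 0.00152) fell. Timp3 reached 1 FPKM in 3 libraries only, 2 of Pro and 1 of Baso. Sparc, a matrix protein that stromal cells also make, reached 37.5 FPKM in Pro replicate 2 and 2.36 to 8.38 FPKM in the other Pro libraries. The proteoglycan gene Srgn was the most abundant of the list by its mean over the 12 libraries, with 128 ± 42.0 FPKM in Pro and 236 ± 78.0 FPKM in Ortho (0.87, adjusted p = 0.0183, under the fold of a call).

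Of 16 transcription factor genes tested out of 17, 2 rose and 4 fell in Ortho. In this comparison with Pro, 6.33% of all genes tested were called higher and 23.8% lower. Gata2, a factor of early progenitors and mast cells, rose by 1.02 (adjusted p = 0.000727) and Ets1 by 1.04 (adjusted p = 3.5e-05) on the log2 scale. Those that fell are factors that erythroblasts use too, namely Gfi1b (-2.91, adjusted p = 1.52e-08), Gata1 (-2.04, adjusted p = 6.98e-09), Zfpm1 (-1.70, adjusted p = 0.000701) and Tal1 (-1.085, adjusted p = 7.94e-07). Gata1 had mean FPKM of 130.5 ± 10.5 (Pro), 128 ± 9.95 (Baso), 100.1 ± 2.65 (Poly) and 30.9 ± 2.76 (Ortho), and Gfi1b had 99.2 ± 14.9, 48.2 ± 8.05, 47.5 ± 4.14 and 12.3 ± 1.41 FPKM. Of 20 signalling and cytoskeletal genes, 2 rose in Ortho, the kinase gene Syk (1.16, adjusted p = 2.53e-07) and the phospholipase gene Plcg2 (1.02, adjusted p = 1.37e-06), and limma called 0 lower, with 5 lower at an unadjusted p under 0.05 (54.0% of all genes). Of the 3 most abundant of them, the talin gene Tln1 had 106 ± 6.93 FPKM in Pro and 89.2 ± 8.55 FPKM in Ortho (-0.25, adjusted p = 0.0148), and Rasgrp2, an activator of the small GTPase RAP1, had 58.1 ± 8.75 and 89.6 ± 2.94 FPKM (0.63, adjusted p = 0.00012), both under the fold of a call. Fermt3 (kindlin-3, an integrin activator) had 121 ± 5.31 FPKM in Pro and 68.2 ± 3.17 FPKM in Ortho (-0.82, adjusted p = 8.03e-07, under the fold of a call).

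Some genes of these lists shared the variation of Ppbp within stages. In 13 of the 71 tested genes (18.3%) the deviations from the stage means had r over 0.7 with those of Ppbp, compared with 3.39% of all genes tested, a limit chosen after the values had been seen, and in 3 genes r was under -0.7. With Pf4 8 of the 71 were over this limit (3.525% of all genes tested), with Itga2b 15 (2.23%) and with Fli1 8 (3.68%). Those over it with Ppbp were the receptor genes Gp1ba, Clec1b and P2ry1, the granule and enzyme genes Mmrn1, Clu, Timp3, Alox12 and Rab27b, the factor Gfi1b and the signalling and cytoskeletal genes Tubb1, Gng11, Cavin2 and Mrvi1. For all 13, Baso replicate 1 was the lowest Baso library, as it was for Ppbp (0.419 FPKM) and for 39.8% of all genes tested. The r values thus lean partly on 1 library. Of these 13, 12 had a log2 fold change below 0 in Ortho compared with Pro, as had 66.2% of all genes, and 4 were called lower. Gp1ba, Timp3, Cavin2 and Mrvi1 reached 1 FPKM in Pro and Baso libraries only. Clu, Alox12, Rab27b and Tubb1 did so in 1 Ortho library besides. These genes passed the filter mainly through the stages where they were high, so a value below 0 was partly set by the filter. Most of the 13 were low, and Tubb1, the platelet beta-1 tubulin, for example had 1.87, 5.73 and 1.88 FPKM in Pro and 0.129, 2.35 and 1.79 FPKM in Baso.

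**Figure D5:**
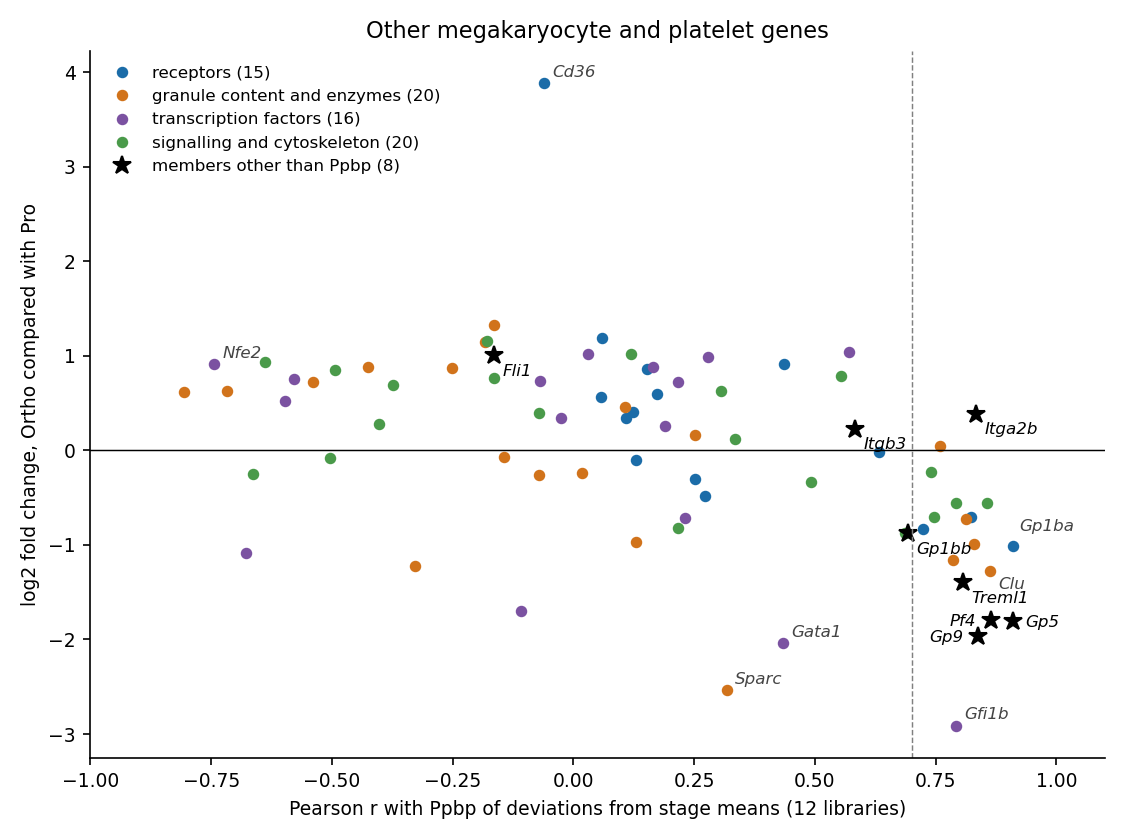
Log2 fold change of Ortho compared with Pro against the Pearson r with Ppbp of deviations from the stage means, for 71 other megakaryocyte and platelet genes (dots, coloured by list) and 8 members (stars), with a dashed line at r = 0.7. Pf4, Gp5, Gp9 and Treml1 lay below 0 on the y axis, Itga2b above 0 and Fli1 to the left of the line.

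By level over all 12 libraries, the genes most like Ppbp were Gp1ba (r = 0.946) and Clu (r = 0.937), both from the lists above. Those most like Gp9 were Nmnat3, an enzyme of NAD synthesis (r = 0.990), and Xk, a gene of a red cell blood group protein (r = 0.981). Those most like Pf4 were Snord104 (r = 0.976) and Exosc1 (r = 0.965), and like Gp5 they were Gm2000 (r = 0.977) and Cops4 (r = 0.972). For Treml1 they were Uqcrc2 (r = 0.971) and Rpl37 (r = 0.968), and for Gp1bb Hdhd2 (r = 0.985) and Rps23-ps2 (r = 0.981). Itga2b was most like Esr1 (r = 0.943) and Zfp677 (r = 0.927), both near 1 FPKM, and Itgb3 most like Rabep2 (r = 0.826) and F2rl3 (r = 0.802), a thrombin receptor gene of platelets. These likenesses were the highest of 12994 genes over libraries that share the 4 stages, and they were not tested.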

How the data were processed

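RNA was sequenced from 12 libraries of sorted mouse erythroblasts, 3 for each of 4 stages. Following the study's methods and the submitters' processing notes, the authors removed adaptors with Cutadapt and low-quality sequence with Trimmomatic, aligned reads to mm10 with HISAT2, and used featureCounts to count them. The deposited values are FPKM per gene and library. Versions, annotation release and the tool that calculated FPKM are not given in the sources used here. The labels name Trizol extraction and NEBNext Ultra libraries, and the methods name other kits. FPKM is relative to the rest of a library, so a larger share of hemoglobin transcripts lowers the values of other genes. The deposited table held 29839 lines, of which 1 repeated an identifier and was removed, and 29750 identifiers were found in GENCODE M21, the source of positions.

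The 12994 genes with 1 FPKM or more in 3 or more libraries entered 1 model of all 12 libraries (limma 3.58.1, R 4.3.3), fitted to log2(FPKM + 1) with a variance trend. Two-sided p-values received a Benjamini-Hochberg adjustment over these genes, and genes were called where the adjusted p was under 0.05 and the difference 1 or more on the log2 scale in either direction. The 4 ratios of members were compared by exact permutation of the libraries among the stages (15400 divisions, differences in any direction, Python 3.11.15). With 3 libraries against 3, such a test cannot go below 0.1, and none was run for 2 stages alone. Counts cannot be recovered from these values, so no counting error is given.

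Members and lists were chosen with earlier results of these data known. The genes named were the members, the 3 most abundant genes of each list and up to 4 per list with the largest called change in Ortho compared with Pro, the 2 genes most like each member, overlapping genes and Klf1. Deviations from the stage means of libraries with the same replicate number were correlated at 0.156 to 0.319 among Baso, Poly and Ortho. The values alone, not the labels, thus pair these 3 stages by number. Between Pro and the others the correlations were 0.00524 to 0.0968, so Pro was taken as unpaired. Alternatives were other pseudocounts, filters, scalings and models, the replicate block, and leaving out each library.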

Additional observations from a re-analysis of the deposited data

How the results depend on the processing

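The number of members called compared with Pro was 3 (Baso), 4 (Poly) and 6 (Ortho), and it was 0 from Baso to Poly and 1 from Poly to Ortho. A pseudocount of 5 gave 0, 2, 3, 0 and 0. A mean FPKM of at least 5, under which 6 members were tested, gave 1 in Baso and 2 in Poly, and in Baso rescaling without hemoglobin genes and centring on the median gave 0 each. The adjusted p alone gave 5 in Baso, 7 in Poly and 1 from Baso to Poly. Leaving out 1 library gave 0 to 4 in Baso (0 without Baso replicate 1 and 1 without Pro replicate 3), 4 to 5 in Poly, 4 to 6 in Ortho, 0 to 2 from Baso to Poly (2 without Baso replicate 1 and 1 without Poly replicate 3) and 1 throughout from Poly to Ortho. The ratio of Gp9 to Gp5 changed sign with a pseudocount of 1, added after the values had been seen, from 0.62 to -0.16 (log2, Ortho minus Pro). The causes were not tested. The single fold changes were tallied over all alternatives, including a match by Ensembl identifier that repeated the main fit. Leaving out a library of a stage not compared also leaves a fold change as it was, and only called ones could lose a call. The tally is thus no measure of how stable the calls were. In it, 1032 kept their side of the threshold, 32 lost a call and 19 gained one. Among those lost were Ppbp in Ortho with no filter (adjusted p = 0.0738) or rescaled without hemoglobin genes (adjusted p = 0.0519), Treml1 in Ortho centred on the median (-0.99) and Fli1 in Ortho with a pseudocount of 5 (0.75). With the replicate number as a block over Baso, Poly and Ortho, 0 members were called from Baso to Poly and 1 from Poly to Ortho, as without it. As a block over all 12 libraries, where a pairing of Pro is uncertain, it added Ppbp in Baso compared with Pro (-1.80, limma adjusted p = 0.0105). Unknown depth leaves the precision of values near 1 FPKM, such as those of Gp1bb and Treml1, to the spread of 3 libraries.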
